A study of Mus musculus with 4 samples.

Results

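Cdh1, which encodes E-cadherin, was followed in mouse invariant natural killer T (iNKT) cells together with the genes of the catenins that bind its cytoplasmic tail (Ctnna1, Ctnnb1, Ctnnd1 and Jup) and with Klrg1, which encodes a lymphocyte receptor for E-cadherin. Members were the probe sets whose only gene symbol in the platform annotation is one of these 6 genes. They came to 7 of the 41345 probe sets on the array and 6 of the 22180 genes named there, with 2 probe sets for Cdh1 and 1 for each other gene. Cdh1 was chosen by its large fall in the comparison described here, so its values are given as a description with no test. The other 5 genes were taken for their part in E-cadherin adhesion or recognition.

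The comparison was between iNKT cells of CD4-Vα14Tg mice and iNKT cells of wild-type (WT) mice, with 2 arrays of total RNA for each genotype. CD4-Vα14Tg mice carry a Vα14 T cell receptor α chain as a transgene under the CD4 promoter, which is active in the T cell lineage. No organ, age, sex, strain or sorting gate is stated for the cells, and the protocol speaks of frozen tissue. Nothing says that the arrays of a group came from separate mice, so p-values measure the spread between these arrays, which may be technical. The genes of T cell and iNKT identity were read clearly on all arrays: 14 of 14 lay above the filter described below, with Cd3e, a chain of the T cell receptor complex, between 11.95 and 12.5 and Zbtb16, the gene of the iNKT transcription factor PLZF, between 11.1 and 11.4.

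E-cadherin is a calcium-dependent adhesion molecule that binds E-cadherin on a neighbouring cell. Its tail holds β-catenin or the related plakoglobin (Jup), which recruit α-catenin and through it the actin cytoskeleton, while p120-catenin (Ctnnd1) binds nearer the membrane and keeps the cadherin from being internalised. β-catenin also serves as the transcriptional partner of TCF1 and LEF1 in Wnt signalling. Lymphocytes also meet E-cadherin through receptors: the integrin αEβ7 (CD103, encoded by Itgae and Itgb7) and the inhibitory receptor KLRG1, a marker of effector T cells and NK cells that binds classical cadherins.

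All values are deposited log2 values from RMA, a method that corrects background, equalises the distribution of the arrays and summarises the probes of a probe set. A gene was tested when it reached the 40th percentile of its array, near 4.7, on at least 2 of the 4 arrays, and limma's test was fitted to all 13602 such genes. Of these, 265 passed at an adjusted p under 0.05, which is 1.95%, with 83 higher (0.610%) and 182 lower (1.34%) in CD4-Vα14Tg cells. The median difference of all genes tested was -0.022 on the log2 scale. Counts of calls in the lists below stand beside the shares above. The lists were chosen with earlier results of these data known, so these counts are descriptions and do not measure an excess. Counts at an unadjusted p under 0.05 have no share over all genes beside them and are descriptions only. Values of different probe sets cannot be set against each other as levels. Comparisons are therefore between genotypes, of 1 gene or of the summed linear signal of 1 list. Such sums are weighted towards the brightest probe sets of a list.

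Cdh1 was measured well above background in WT cells and was lower on both CD4-Vα14Tg arrays. Its brighter probe set read 8.69 and 8.72 on the WT arrays and 6.41 and 6.61 on the CD4-Vα14Tg arrays. The groups did not overlap: the highest CD4-Vα14Tg value minus the lowest WT value was -2.08 on the log2 scale. Group means were 6.51 ± 0.14 against 8.70 ± 0.02 (SD, n = 2 arrays each), a log2 difference of -2.20, or 4.58-fold. The signal stayed above the filter on all 4 arrays, between the 67.3rd and the 91.2nd percentile, so the lower value in CD4-Vα14Tg cells was not at background. Among the 13602 genes, 13 others had a fall at least as large.

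The dimmer probe set of Cdh1 ran the same way at the edge of background. It read 4.77 and 4.74 in WT cells and 4.25 and 4.46 in CD4-Vα14Tg cells, a log2 difference of -0.40, or 1.32-fold. Both WT arrays were just above the 40th percentile and both CD4-Vα14Tg arrays below it, with no overlap. With the mean of both probe sets in place of the brighter one the log2 difference of Cdh1 was -1.30. With 1 array left out in turn it stayed between -2.29 and -2.10 for the brighter probe set. In RNA pooled from many cells, fewer cells that express Cdh1 and less Cdh1 RNA per cell cannot be told apart.

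**Figure D1:**
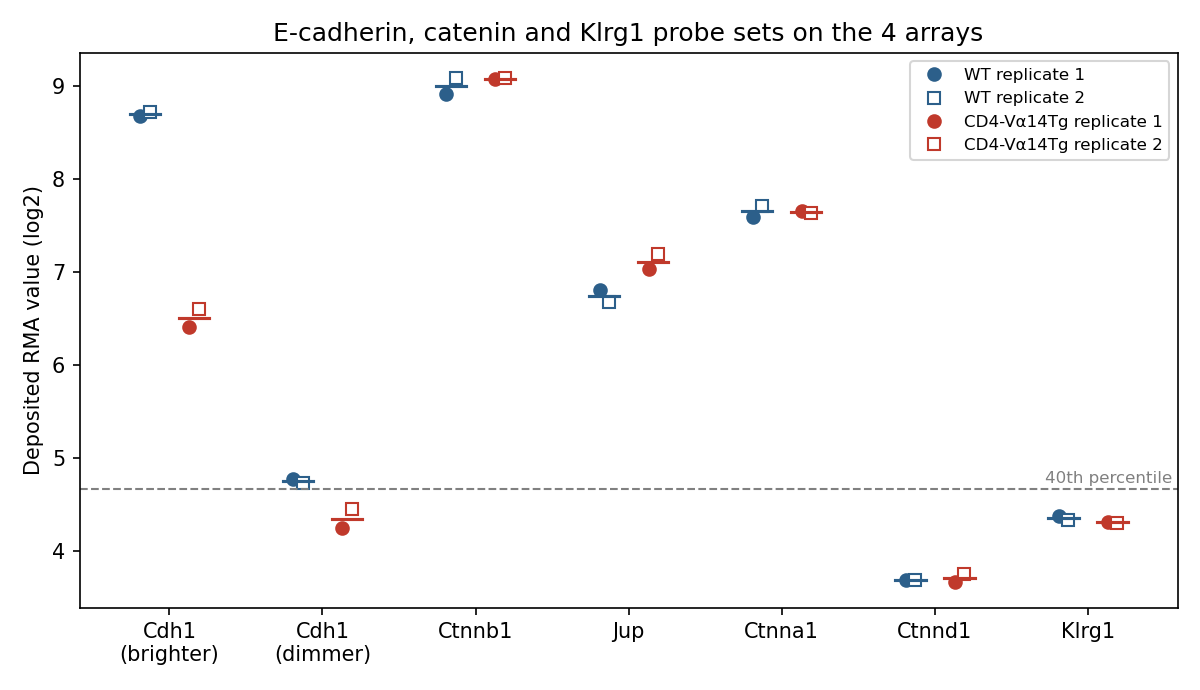
Deposited log2 RMA value (vertical axis) of the 7 probe sets of Cdh1, Ctnnb1, Jup, Ctnna1, Ctnnd1 and Klrg1 (horizontal axis) on the 2 WT (blue) and 2 CD4-Vα14Tg (red) arrays; short bars are group means and the dashed line is the 40th percentile averaged over the arrays. Both Cdh1 probe sets are lower in CD4-Vα14Tg cells (6.51 against 8.70 for the brighter), the Ctnnb1 and Ctnna1 arrays overlap, and Ctnnd1 and Klrg1 lie below the line on every array.

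No catenin gene was lower in CD4-Vα14Tg cells by the test. Of the 3 catenin genes above the filter (Ctnnb1, Jup and Ctnna1), 0 passed limma's test, against 1.95% of all genes tested, and 1 reached an unadjusted p under 0.05. Ctnnb1, the gene of β-catenin, read 8.92 and 9.09 on the WT arrays and 9.07 and 9.09 on the CD4-Vα14Tg arrays. The groups overlapped, and the log2 difference was 0.08 and its 95% interval ran from -0.21 to 0.37 (limma adjusted p = 0.919). A CD4-Vα14Tg level from 0.866 to 1.29 times that of WT is within this interval.

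Ctnna1, the gene of α-catenin that ties the complex to actin, read 7.59 and 7.71 in WT cells and 7.66 and 7.64 in CD4-Vα14Tg cells. Here too the groups overlapped. The log2 difference was -0.009 with a 95% interval from -0.29 to 0.27, or 0.820 to 1.21 times the WT level (limma adjusted p = 0.997), and its sign turned under other scalings.

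Jup, the gene of plakoglobin that can take the place of β-catenin on the cadherin tail, was the catenin gene whose groups did not overlap. It read 6.81 and 6.68 on the WT arrays and 7.03 and 7.20 on the CD4-Vα14Tg arrays, so that both CD4-Vα14Tg arrays were above both WT arrays by at least 0.22. The log2 difference was 0.37, or 1.29-fold, with a 95% interval from 0.07 to 0.67. The unadjusted p was 0.0225 and limma's adjusted p was 0.285, so Jup did not pass. Among all genes tested, 39.1% had arrays that stood apart by genotype in this way, 15.7% with CD4-Vα14Tg higher and 23.4% with it lower. Of the 3 catenin genes above the filter, Jup stood apart and Ctnnb1 and Ctnna1 did not.

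Ctnnd1 and Klrg1 lay below the 40th percentile on all 4 arrays and were not tested. Ctnnd1, the gene of p120-catenin, read 3.69 on both WT arrays and 3.66 and 3.75 on the CD4-Vα14Tg arrays, between the 16.4th and the 18.0th percentile. Its log2 difference was 0.02. Klrg1 read 4.38 and 4.34 in WT cells and 4.32 and 4.31 in CD4-Vα14Tg cells, between the 31.4th and the 32.8th percentile. The arrays stood apart by 0.021, and the log2 difference was -0.047, with a 95% interval from -0.30 to 0.21 when all 22180 genes were fitted without the filter (limma adjusted p = 0.976). A signal this close to background says little about either gene, since differences there are compressed. The 5 tested genes whose pattern over the 4 arrays was nearest to that of Klrg1, by the Euclidean distance of values centred on each gene's mean, were Htr1d, Cope, Myd88, Slc20a2 and Suclg2 at distances from 0.0099 to 0.016, all of them with differences from -0.054 to -0.035.

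The integrin that binds E-cadherin split by chain. Itgae, the αE chain (CD103), fell 2.26-fold in CD4-Vα14Tg cells. It read 10.5 and 10.4 on the WT arrays and 9.09 and 9.52 on the CD4-Vα14Tg arrays, with no overlap, and the log2 difference was -1.18 and its 95% interval ran from -1.56 to -0.79 (limma adjusted p = 0.0169). Without WT replicate 1 the limma adjusted p was 0.0511. Itgb7, the β7 chain that also pairs with the α4 integrin, read 9.71 and 9.65 in WT cells and 9.70 and 9.82 in CD4-Vα14Tg cells. Its groups overlapped, with a log2 difference of 0.08 and a 95% interval from -0.21 to 0.36 (limma adjusted p = 0.920).

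**Figure D2:**
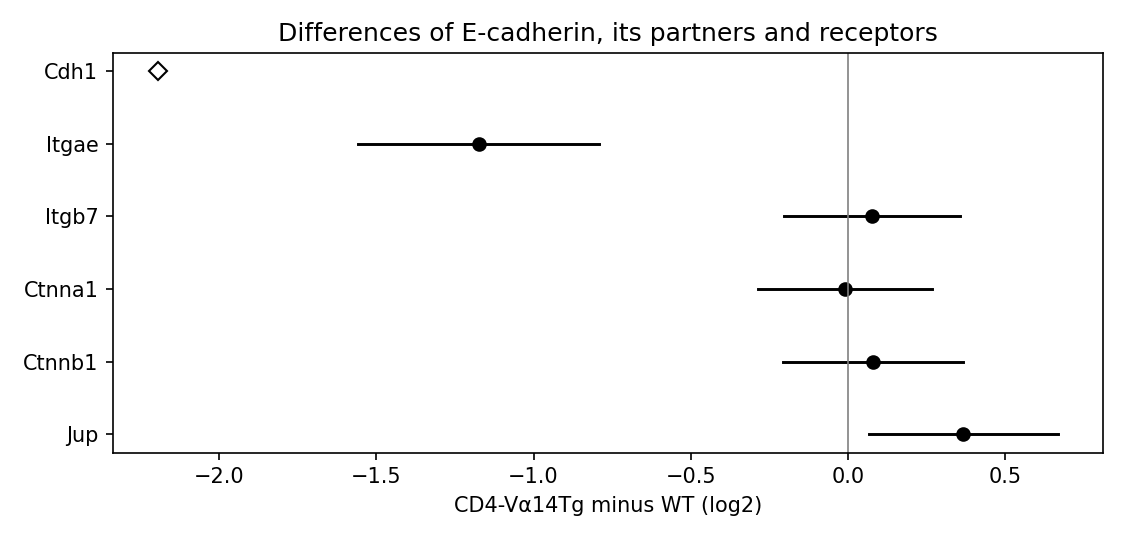
Log2 difference, CD4-Vα14Tg minus WT (horizontal axis), of Cdh1, the integrin genes Itgae and Itgb7 and the catenin genes above the filter, with limma's 95% intervals as lines; Cdh1 (open diamond, -2.20) was chosen for its fall and carries no interval. The interval of Itgae lies below 0, those of Itgb7, Ctnna1 and Ctnnb1 span 0, and that of Jup runs from 0.07 to 0.67.

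Other cadherins gave no calls. Of 22 cadherin genes besides Cdh1, 14 lay below the 40th percentile on all 4 arrays and 8 were tested, with 0 calls by limma and 0 at an unadjusted p under 0.05. Their differences ran from -0.15 to 0.27 with a median of 0.11. Among them are the other ligands reported for KLRG1. Cdh4 (R-cadherin) read 5.45 and 5.24 in WT cells and 5.65 and 5.57 in CD4-Vα14Tg cells, apart but not past the test (log2 difference 0.27, limma adjusted p = 0.502), and Cdh2 (N-cadherin) stayed between 3.95 and 4.19, below the filter.

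Among 6 tested relatives of the catenins, 1 passed. Pkp4, which encodes plakophilin-4, an armadillo protein of the p120-catenin family found at adherens junctions and desmosomes, rose 1.86-fold, from 6.37 and 6.04 to 7.26 and 6.94, just under the threshold (limma adjusted p = 0.04996). Pkp4 lost its call without 3 of the 4 arrays, with limma adjusted p up to 0.187, and held it without WT replicate 1 (0.0415). The call was also lost with no filter (limma adjusted p = 0.0706) and with repeated quantile normalization (0.0602). Ctnnal1, an α-catenin relative, had a log2 difference of -0.38 (limma adjusted p = 0.262). The 6 had a median of 0.14.

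Of 22 tested linkers, nectins and actin regulators of adherens junctions, 21 were read above the filter on all 4 arrays, and of these 0 passed limma's test. The other was Tjp1. Tjp1, the gene of the scaffold ZO-1, read 5.52 and 5.84 on the WT arrays and 4.59 and 4.43 on the CD4-Vα14Tg arrays. Both CD4-Vα14Tg values were below the 40th percentile, so Tjp1 entered the test through the WT arrays alone. It was called lower (limma adjusted p = 0.0111), but no fold is given against a signal near background, and it was not tested under the filter at the 60th percentile. At an unadjusted p under 0.05 there were 7 genes of the list, 1 higher and 6 lower, Tjp1 included. Pvr, a nectin-like receptor, did not pass with a log2 difference of -0.91 (limma adjusted p = 0.0650). Zyx (zyxin) had -0.54 (limma adjusted p = 0.130), and Vcl, the gene of vinculin that binds α-catenin under tension, had -0.43 (limma adjusted p = 0.255). With the replicate number as a block, Pvr and Zyx passed as lower (limma adjusted p = 0.0031 and 0.033). With median centring 2 genes of the list were lower. Of 15 desmosome genes that work with plakoglobin, 12 lay below the 40th percentile on every array, and of the 3 tested, 0 passed limma's test, with 0 at an unadjusted p under 0.05.

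Repressors known to silence Cdh1 in epithelial cells were not higher by limma's test. Of 13 tested, 0 passed, and at an unadjusted p under 0.05 there were 2 higher and 2 lower, Snai1 among the lower. Snai1 (Snail) read 4.97 and 4.85 in WT cells and 4.52 and 4.33 in CD4-Vα14Tg cells, the second pair below the 40th percentile. It was tested through its WT arrays alone and did not pass (limma adjusted p = 0.143). With the replicate number as a block Snai1 passed as lower (limma adjusted p = 0.0494). Zeb1 read 8.51 and 8.77 against 8.75 and 8.62, with overlapping groups (log2 difference 0.05, limma adjusted p = 0.970). Ezh2, the methyltransferase of Polycomb repressive complex 2, had a log2 difference of 0.46 (limma adjusted p = 0.158). Klf8 had 0.63 (limma adjusted p = 0.282), resting on WT replicate 1, which read 4.45 while the other 3 arrays lay between 5.15 and 5.45. Klf8 passed without WT replicate 2 (limma adjusted p = 0.0413), the only one of the 12 alternatives that called a repressor higher.

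Of 9 tested factors that activate Cdh1 or are tied to its expression, 1 fell and 0 rose, with a median of -0.12. Runx3, a transcription factor of cytotoxic lymphocytes, read 8.37 and 8.54 on the WT arrays and 6.95 and 7.39 on the CD4-Vα14Tg arrays, a 2.44-fold fall with no overlap (limma adjusted p = 0.0130). The call held when any 1 array was left out, though barely in 1 case (limma adjusted p = 0.0499). Its relative Runx1 had a log2 difference of 0.53 (limma adjusted p = 0.0849) and passed as higher with the replicate number as a block (limma adjusted p = 0.0394). The epithelial factors Grhl2, Ovol1, Elf3, Ehf and Esrp1 all lay below the 40th percentile on every array.

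Genes that cleave, sort or degrade cadherins gave no calls. Of 23 tested, 0 passed limma's test, with 2 at an unadjusted p under 0.05, both lower, with differences from -0.51 to 0.23 and a median of -0.087. With the replicate number as a block 1 was lower. Furin, the convertase that removes the E-cadherin propeptide, read 8.17 and 8.12 in WT cells and 7.69 and 7.58 in CD4-Vα14Tg cells (log2 difference -0.51, limma adjusted p = 0.100). Adam10, the main sheddase of E-cadherin, had a log2 difference of -0.22 (limma adjusted p = 0.599), and Cbll1, the ubiquitin ligase Hakai, had 0.18 (limma adjusted p = 0.777).

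The cytosolic machinery that degrades β-catenin also gave no calls: of 19 tested genes 0 passed by limma, 0 reached an unadjusted p under 0.05, and the differences ran from -0.28 to 0.29 with a median of -0.024. The scaffold gene Apc differed by 0.02 (limma adjusted p = 0.990) and the kinase gene Gsk3b by 0.04 (0.977), both with overlapping groups. Among 18 tested nuclear partners, 1 rose and 0 fell, with a median of 0.03. Lef1, a DNA-binding partner of β-catenin, read 9.83 and 9.96 in WT cells and 10.8 and 10.7 in CD4-Vα14Tg cells, a 1.79-fold rise (limma adjusted p = 0.0173). Lef1 lost the call without either CD4-Vα14Tg array or without WT replicate 1 (limma adjusted p up to 0.0733).

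Of 11 tested Wnt receptor genes, 3 fell and 0 rose, against 1.34% and 0.610% of all genes tested, and the median was -0.04. Ryk, an atypical receptor kinase that binds Wnt proteins, read 6.41 and 6.27 in WT cells and 5.28 and 5.09 in CD4-Vα14Tg cells, a 2.22-fold fall (limma adjusted p = 0.00788) that held when any 1 array was left out. The receptor gene Fzd5 fell 1.71-fold (limma adjusted p = 0.0200). Rnf43, a ubiquitin ligase that removes Frizzled receptors, fell 1.62-fold (limma adjusted p = 0.0341). With any 1 array left out, neither Fzd5 nor Rnf43 passed (limma adjusted p from 0.0752 to 0.135), and the count of Wnt receptor genes lower was 1.

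Targets of β-catenin did not move one way. Of 15 tested, Lef1 rose and Rnf43 fell, while 13 stayed short of the threshold, and the median was 0.02. The count lower was 2 with either other variance model, with median centring and with the replicate number as a block. It was also 2 with the filter at the 60th percentile. Axin2, the most general target of the pathway, read 7.55 and 7.43 in WT cells and 7.40 and 7.59 in CD4-Vα14Tg cells, with overlapping groups and a log2 difference of 0.0065 (95% interval 0.815 to 1.24 times the WT level, limma adjusted p = 0.999). Its dimmer probe set had -0.17. Cd44, an adhesion receptor for hyaluronan, missed the threshold with a log2 difference of -0.73 (limma adjusted p = 0.0550). Ccnd1 and Myc differed by -0.46 and -0.44 (limma adjusted p = 0.317 and 0.441). Tcf7 was not analysed here.

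**Figure D3:**
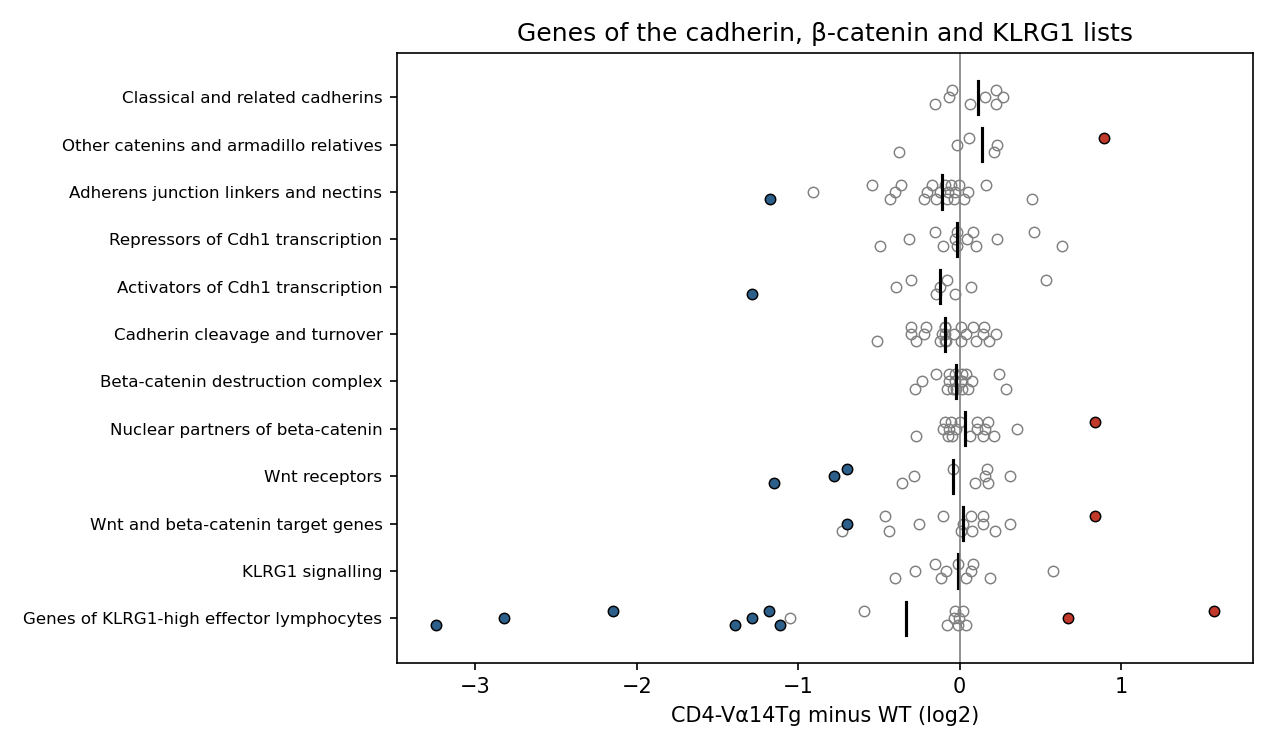
Log2 difference, CD4-Vα14Tg minus WT (horizontal axis), of each tested gene of 12 lists around E-cadherin, β-catenin and KLRG1 (vertical axis); open circles did not pass limma's test, red circles passed as higher, blue circles passed as lower, and the vertical bars are list medians. Most lists centre near 0 (medians from -0.12 to 0.14), and the genes of KLRG1-high effector lymphocytes have a median of -0.33 with 7 lower and 2 higher. Tjp1, among the blue circles, and Snai1 and Fzd7, among the open circles, reached the filter on the WT arrays alone. Vertical offsets of the circles within a list have no meaning.

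Genes of proteins that act downstream of KLRG1 were read above the filter, unlike the receptor itself. Of 11 tested, 0 passed limma's test, with 2 at an unadjusted p under 0.05, with a median of -0.007. With median centring, and with the replicate number as a block, 1 was higher. Inpp5d (SHIP-1) and Ptpn11 (SHP-2), the phosphatases recruited by inhibitory receptors of this kind, differed by -0.15 and -0.08 on the log2 scale (limma adjusted p = 0.766 and 0.917), and Ptpn6 (SHP-1) by -0.40 (limma adjusted p = 0.236). Foxo1, a transcription factor restrained by AKT, had 0.58 (limma adjusted p = 0.0721), while its dimmer probe set had -0.098.

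Among genes that accompany KLRG1 on effector lymphocytes more calls were lower than higher, as among all genes tested. Klrg1 itself was not read above the filter. Of 18 tested, 9 passed limma's test, 7 as lower and 2 as higher, and the median was -0.33. Of all genes tested 1.95% passed, 1.34% as lower and 0.610% as higher, so that 68.7% of all calls were lower. Gzma and Gzmb, genes of the cytotoxic granzymes, fell 9.47-fold and 7.08-fold (limma adjusted p = 0.00156 and 4.09e-04). Ccl5, a chemokine of effector cells, read 10.7 and 10.4 in WT cells and 8.59 and 8.21 in CD4-Vα14Tg cells, a 4.43-fold fall (limma adjusted p = 0.00179). Tbx21, Nkg7, Runx3 and Prf1 fell 2.62-fold, 2.27-fold, 2.44-fold and 2.16-fold, and Prf1, the gene of perforin, lost its call without 3 of the 4 arrays (limma adjusted p up to 0.0689). S1pr1, the receptor for tissue egress, rose 2.98-fold (limma adjusted p = 0.00833). Itgam, the integrin αM chain, rose 1.59-fold (limma adjusted p = 0.0438) but passed in none of the fits that left out 1 array, and 1 gene of the list was higher in each of those.

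The 5 tested genes whose pattern over the 4 arrays lay nearest to that of Cdh1, by the same distance, were Klrc1, Clnk, Klrd1, Itga1 and Entpd1. Klrc1, the gene of the NK receptor NKG2A, was at a distance of 0.15 and read 9.09 and 9.12 in WT cells and 6.78 and 6.83 in CD4-Vα14Tg cells. Clnk, an adaptor of immunoreceptor signalling related to SLP-76, was at 0.16 and read 7.25 and 7.42 against 5.03 and 5.38. Klrd1, the CD94 partner of NKG2A, was at 0.25 and read 10.2 and 10.5 against 8.10 and 8.07.

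Itga1, the collagen-binding integrin α1 chain, was at 0.29 and read 8.55 and 8.81 against 6.51 and 6.87. Entpd1, the ectoenzyme CD39, was at 0.36 and read 7.93 and 8.09 against 6.14 and 6.10. These genes have folds from 3.72 to 4.94, and since likeness was measured on the same 4 arrays that chose Cdh1, their shared direction follows from the choice.

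**Figure D4:**
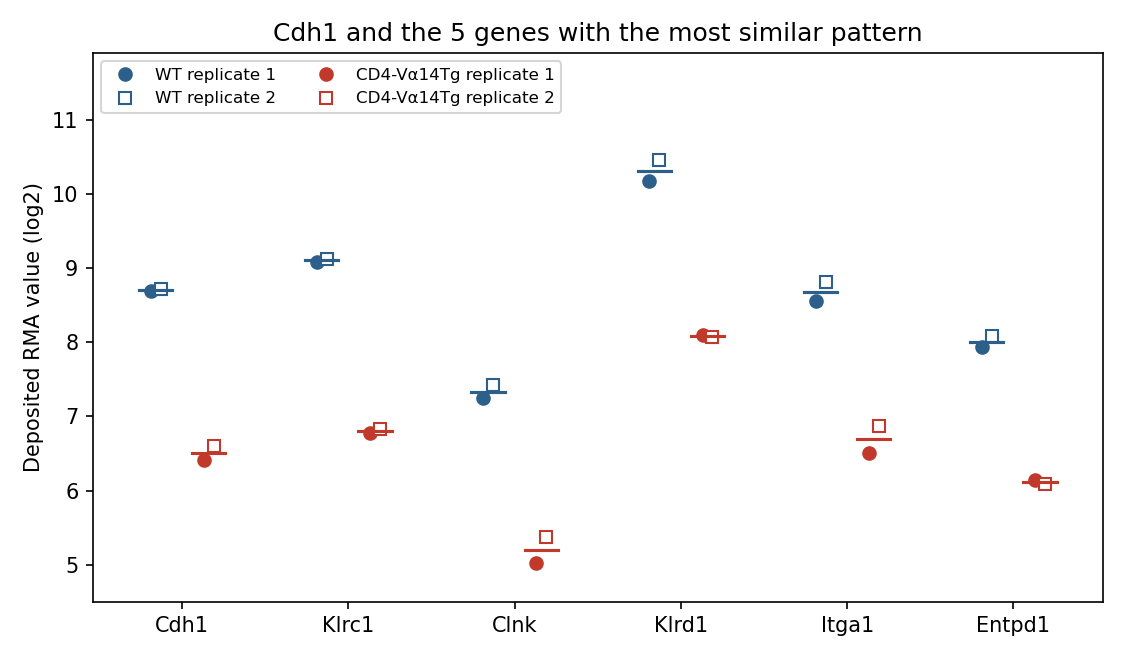
Deposited log2 RMA value (vertical axis) of Cdh1 and the 5 tested genes with the smallest distance to it (horizontal axis, nearest first) on the 2 WT (blue) and 2 CD4-Vα14Tg (red) arrays, with group means as short bars. Each gene is lower on both CD4-Vα14Tg arrays, with log2 differences from -2.30 to -1.89.

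Markers of cell types that could carry E-cadherin RNA into the samples were read beside Cdh1. Of 20 epithelial markers, 11 lay below the 40th percentile on every array, Epcam, Krt14, Krt19 and Ocln among them, and of the 9 tested 0 passed limma's test, with 0 at an unadjusted p under 0.05. Their summed linear signal ran from 729 to 743 in CD4-Vα14Tg cells and from 744 to 790 in WT cells. The brightest were Ly75 (7.03 to 7.42), Lsr (6.41 to 6.62) and Aire (6.02 to 6.34). Of 10 hepatocyte markers, 5, Alb among them, were below the 40th percentile on every array, and 0 of the 5 tested passed limma's test, with 0 at an unadjusted p under 0.05 and sums from 250 to 268 against 246 to 267.

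Of 10 dendritic and Langerhans cell markers, 5 were tested, 0 passed limma's test, with 1 at an unadjusted p under 0.05. Cd207, the gene of langerin that marks the E-cadherin-bearing Langerhans cell, read 5.25 to 5.36 on all arrays with a log2 difference of -0.04. The list sums were 1706 to 1832 in CD4-Vα14Tg cells and 1936 to 2437 in WT cells, most of it from the probe set of Cd209a. Cd209a had a mean of 10.6 in CD4-Vα14Tg cells and 10.9 in WT cells, a log2 difference of -0.33, and did not pass. Its dimmer probe set had -0.21. H2-Aa and H2-Ab1, class II genes of antigen-presenting cells, were below the 40th percentile on every array.

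Other lists also held genes that passed in the comparison by which Cdh1 was chosen. Of 17 tested NKT17 genes, those of the interleukin-17-producing iNKT subset, 12 were read above the filter on all 4 arrays. Of these 12, 6 fell and 0 rose, against 1.34% and 0.610% of all genes tested. Those shares also cover genes that reached the filter on fewer arrays. The list was chosen with earlier results of these data known, so the count is a description. The 6 were Blk, Itgae, Maf, Serpinb1a, Tmem176b and Il17re. The count was 3 without either CD4-Vα14Tg array, 4 without WT replicate 1 and 2 without WT replicate 2. Another 4 genes, Il23r, Il1r1, Ccr6 and Ltb4r1, reached the filter on the WT arrays alone, so that a difference was built into their entry to the test. Il23r, a receptor that defines the subset, read 7.58 and 8.25 in WT cells and 3.32 and 3.73 in CD4-Vα14Tg cells, and Il1r1 read 7.60 and 8.13 against 4.33 and 4.06. The summed signal of all 18 list genes on the array ran from 2991 to 3624 in CD4-Vα14Tg cells and from 5467 to 6062 in WT cells. It includes the 4 genes read on the WT arrays alone, so part of this difference was built in.

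Of 7 tested NK cell and ILC1 markers, 6 had negative and 1 positive differences, with a median of -0.60. At an unadjusted p under 0.05, 5 were lower and 1 higher. With the replicate number as a block, limma called 4 lower and 1 higher. Of the 7, 6 were read above the filter on all 4 arrays. Among these 6, Klrb1c, the gene of NK1.1, fell and Itgam rose, against 1.34% lower and 0.610% higher of all genes tested. With any 1 array left out Klrb1c was still called and Itgam was not. Ncr1 reached the filter on the WT arrays alone, with 5.05 and 5.14 against 4.19 and 4.20. List sums, Ncr1 included, were 557 to 602 in CD4-Vα14Tg cells against 823 to 931 in WT cells. Eomes was below the 40th percentile on every array. Markers of naive and CD8 T cells were higher in 3 of 5 tested cases (Ccr7, Igfbp4 and Lef1), against 0.610% of all genes tested. This list was also chosen with earlier results of these data known, so the count is a description. Sums of the naive and CD8 markers ran from 3997 to 4123 against 1855 to 1997, while Cd8a was below the 40th percentile on all arrays. Of 4 tested macrophage and monocyte markers, 1 was lower, against 1.34% of all genes tested. It was Ly6c2, which T cells also express, and it fell 3.15-fold (limma adjusted p = 0.00436). List sums, Ly6c2 included, ran from 1017 to 1095 against 2424 to 3136, so they do not measure macrophages alone. Adgre1, Csf1r and Lyz2 were below the 40th percentile on every array. The part of these cell types in the lower Cdh1 signal was not tested.

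Lists for B cells, mast cells, γδ T cells and erythroid cells and platelets gave 0 calls by limma among 1, 1, 3 and 2 tested markers, with 1, 0, 2 and 0 at an unadjusted p under 0.05. Their sums were 151 to 157 against 129 to 157 for B cells, 112 to 116 against 110 to 110 for mast cells, 606 to 803 against 516 to 520 for γδ T cells and 121 to 126 against 111 to 123 for erythroid cells and platelets, with CD4-Vα14Tg given first. The tested γδ T cell markers were Cd163l1, 5830411N06Rik and Sox13, with log2 differences of 0.59, 0.82 and -0.28. These were the only 3 of 9 listed γδ markers named on the array, and the receptor genes Trdc and Trdv4 were not among them. With the replicate number as a block, 2 of the 3 were called higher. Their median log2 difference was 0.74 without CD4-Vα14Tg replicate 1 and 0.43 without CD4-Vα14Tg replicate 2.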

How the data were processed

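RNA of iNKT cells was measured on 4 whole-transcript arrays, 2 per genotype, grouped by the genotype label. Deposited values lie on a log2 scale, as their range shows, and were made with RMA and Affymetrix Power Tools per the submitters' processing notes; versions, options and genome build were not given in the sources used here, so no coordinates are printed. Quantile normalization hides shifts of total RNA, and the number of arrays limits the precision.

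Of 41345 probe sets, 23521 had 1 symbol, 1814 several and 16010 none; symbols were updated by Entrez number from RefSeq (GRCm38.p6). The brightest probe set stood for a gene. Genes at or above the 40th percentile on 2 arrays (13602) were fitted with limma 3.58.1 in R 4.3.3 (lmFit, eBayes, two-sided), with Benjamini-Hochberg adjustment over all of them. Plots used matplotlib 3.10.9. The fit was tested on simulated data. The 12 alternatives changed the filter, the variance model, the scaling, the probe set rule and the replicate block, or left out 1 array.

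Named were the members, list genes past the threshold or with the largest moderated statistics, the brightest markers, defining markers and the 5 nearest patterns. Defining markers, factors with a known role and dimmer probe sets were also named after their values were seen. The members and lists were chosen with earlier results of these data known. Lists share genes: Lef1, Rnf43, Runx3, Itgae and Itgam each stand in several.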

Additional observations from a re-analysis of the deposited data

How the results depend on the processing

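Calls depended on single arrays and on the treatment of replicate numbers. The 265 calls became 166 to 221 when 1 array was left out (52 to 74 higher, 101 to 147 lower), and genes of the lists that passed went from 28 to between 18 and 23. With the replicate number as a block (replicate block) the counts were 674 in all, 252 higher and 422 lower, and 47 among list genes. The 28 list genes include Tjp1, Ncr1, Il23r and Il1r1. These reached the filter on the WT arrays alone, so a difference was built into their entry to the test. Arrays of the same number deviated together with a correlation of 0.26 over 13602 genes, but 2 pairs do not show that the numbers pair the samples. Cdh1 differed by -1.30 with the mean of its probe sets and otherwise by -2.29 to -2.10. The sign of Ctnna1 turned with repeated quantile normalization (0.026) and with median centring (0.033), and it ran from -0.069 to 0.051 with 1 array left out. Ctnnb1 ran from -0.0045 to 0.166 and Ctnnd1 from -0.023 to 0.063 in the same fits, and Klrg1 was at -0.0053 with median centring. Jup stayed between 0.28 and 0.45 and passed under none of the 12 alternatives (limma adjusted p from 0.179 to 0.721). Signal near background limits Ctnnd1 and Klrg1.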
